A study of Mus musculus with 6 samples.

Results

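The genes described here are 30 genes of cholesterol synthesis, of its control by the SREBP transcription factors, of sterol export and of fatty acid synthesis, taken by symbol from 25031 genes counted in mouse kidneys after ischemia. All 30 were found once each in the table and all 30 passed the filter on low counts, which 15416 genes passed. They comprise 18 synthesis enzymes (7 of the early mevalonate steps and 11 of the squalene and sterol steps), 5 genes of SREBP control, 4 of sterol transport and the LXR receptors, and 3 of fatty acid synthesis and desaturation. The kidneys came from wild-type male C57BL/6 mice, an inbred laboratory strain, aged 7 to 8 weeks. The CePPy group (3 libraries) had bilateral renal ischemia for 23 minutes at a body temperature of 37 °C, then reperfusion, and an intravenous dose of 5 mg/kg of (+)CePPy straight after the injury. The compound is a positively charged polypyrrole nanoparticle doped with cerium. The vehicle group (3 libraries) had the same injury and the same volume of saline, so both groups carry the injury, and no uninjured kidney was analysed here. Whether the libraries of a group came from separate animals is not stated in the labels; p-values therefore reflect library-to-library spread that could be technical.

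Cholesterol is built from acetyl-CoA through mevalonate and isoprenoid units to squalene, which is closed into lanosterol and then trimmed, reduced and rearranged into cholesterol. The genes of this pathway are switched on together by SREBP2, a transcription factor held in the endoplasmic reticulum by SCAP and the INSIG proteins while sterols are plentiful and released to the nucleus when they run low. SREBP1, its relative, acts mainly on fatty acid synthesis, and the LXR receptors sense oxysterols and switch on cholesterol export and Srebf1. In the kidney, cholesterol is known to accumulate in the cortex after acute injury.

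SREBP proteins bind promoters at sterol regulatory elements, usually beside CCAAT boxes bound by NF-Y. The 250 bases before the annotated start are therefore shown for the 4 enzymes in which each CePPy library exceeded each vehicle library, and for Acat2, whose fold change lay nearest to 0. The sequences are from RefSeq on build GRCm38.p6, 5′ to 3′ on the strand of the gene, and capitals mark matches on either strand to the motifs TCACNCCAC (a core of the sterol regulatory element) and the NF-Y box CCAAT, whose reverse complement reads ATTGG. The windows are chr13:119690101-119690350 for Hmgcs1 (plus strand), chr3:89454291-89454540 for the upstream of the Pmvk starts (plus strand), chrX:72918271-72918520 for Nsdhl (plus strand), chrX:8193513-8193762 for Ebp (minus strand) and chr17:12960726-12960975 for Acat2 (minus strand).
Hmgcs1: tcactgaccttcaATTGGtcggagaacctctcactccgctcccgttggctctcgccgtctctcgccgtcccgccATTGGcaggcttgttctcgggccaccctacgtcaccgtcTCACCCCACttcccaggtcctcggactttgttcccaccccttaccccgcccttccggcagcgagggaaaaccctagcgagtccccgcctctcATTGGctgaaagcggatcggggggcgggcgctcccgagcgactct
Pmvk: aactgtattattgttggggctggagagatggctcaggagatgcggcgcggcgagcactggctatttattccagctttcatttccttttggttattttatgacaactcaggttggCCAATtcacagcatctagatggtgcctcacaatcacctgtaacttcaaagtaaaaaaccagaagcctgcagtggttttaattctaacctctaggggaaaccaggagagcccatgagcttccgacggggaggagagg
Nsdhl: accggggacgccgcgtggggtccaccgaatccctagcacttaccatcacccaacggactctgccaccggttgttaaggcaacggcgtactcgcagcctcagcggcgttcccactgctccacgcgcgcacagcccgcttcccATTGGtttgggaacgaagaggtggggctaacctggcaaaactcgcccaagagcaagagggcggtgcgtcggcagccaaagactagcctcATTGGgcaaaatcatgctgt
Ebp: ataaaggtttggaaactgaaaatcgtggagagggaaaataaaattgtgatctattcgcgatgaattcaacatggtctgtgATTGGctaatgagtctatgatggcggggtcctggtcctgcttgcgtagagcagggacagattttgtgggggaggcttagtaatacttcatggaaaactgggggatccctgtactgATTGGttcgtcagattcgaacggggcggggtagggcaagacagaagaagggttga
Acat2: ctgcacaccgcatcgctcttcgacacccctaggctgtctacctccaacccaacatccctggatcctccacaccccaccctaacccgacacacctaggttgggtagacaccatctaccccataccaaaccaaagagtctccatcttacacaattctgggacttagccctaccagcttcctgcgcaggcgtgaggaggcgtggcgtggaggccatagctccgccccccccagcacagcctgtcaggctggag

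RefSeq promoters were found for 24 of the 30 genes, with 33 starts between them. The promoter reference used here held no entry for Fdft1, Fdps, Scd1, Scd2, Sqle and Stard4. The sterol regulatory core was present before 1 of the 33 starts, in 1 of the 24 genes, against 1.05% of all 32851 starts. The gene was Hmgcs1, with the core from 137 to 129 bases before its start. A CCAAT box was present before 20 of the 33 starts, in 19 of the 24 genes, against 33.8% of all starts. CCAAT boxes in Nsdhl began 109 and 20 bases before the start, those in Ebp 170 and 55 bases before it, and the Acat2 window held neither motif. The windows printed were chosen by the values of the genes. CCAAT boxes were also present in Tm7sf2, whose log2 fold change was -0.15, and in Mvk, at 0.20. Another Pmvk start, not printed, held no match. Whether a motif goes with the change of a gene was not tested. The E-box CACGTG was present before 6 of the 33 starts, against 6.02% of all starts. These were in 6 of the 24 genes (Hsd17b7, Sc5d, Dhcr7, Scap, Insig1 and Abca1). The matches do not overlap one another in the windows printed. A match describes letters only, and its absence says only that these letters are not in this window.

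Sterol and lipid synthesis transcripts were compared between injured kidneys given (+)CePPy and injured kidneys given saline. Of the 30 genes, 25 had higher fitted values in CePPy kidneys, against 50.5% of all genes tested. Among the 18 synthesis enzymes 17 did, with a median log2 fold change of 0.42 (a fold of 1.34), against a median of 0.003 over all genes tested. In 8 of the 9 pairings of a CePPy library with a vehicle library, the CePPy library was the lower for 3 to 13 of the 30 genes. In the other, CePPy 3 with vehicle 2, CePPy 3 was the lower for 25. Over all genes tested the CePPy library was the lower for 49.3% to 51.2% in the 9 pairings, and for 50.0% in that one. No gene of the 30 passed the edgeR quasi-likelihood test at an adjusted p under 0.05, where 0% of all genes were called higher and 0.00649% lower. At an unadjusted p under 0.05, edgeR gave 11 higher and 1 lower among the 30, where 9.65% of all genes were higher and 9.37% lower. DESeq2 called 5 of the 30 higher (Hmgcs1, Idi1, Cyp51, Ebp and Scd2) and 0 lower, where 3.43% and 3.23% of all genes were called, and limma-voom called 0.

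Each CePPy library lay above each vehicle library for 5 of the 30 genes (Hmgcs1, Pmvk, Nsdhl, Ebp and Scd2), where 12.3% of all genes did so. The reverse held for 2 (Tm7sf2 and Nr1h2), where 14.0% did so, and the groups overlapped for the other 23. Counts this near to the background are not a result about these genes. Single libraries moved the summary. The enzyme median of 0.42 became 0.27 without CePPy 1 and 0.27 without vehicle 1, and 0.55 without CePPy 3. The median over all 30 genes, 0.31, became 0.20 without CePPy 1. The number of the 30 at an unadjusted edgeR p under 0.05, in either direction, was 12, where 19.0% of all genes were. It became 8 without CePPy 1 (17.2% of all genes), 19 without CePPy 3 (14.3%), 3 without vehicle 1 (12.7%) and 4 without vehicle 3 (13.1%), so without vehicle 1 or vehicle 3 the share was near that of all genes.

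**Figure D1:**
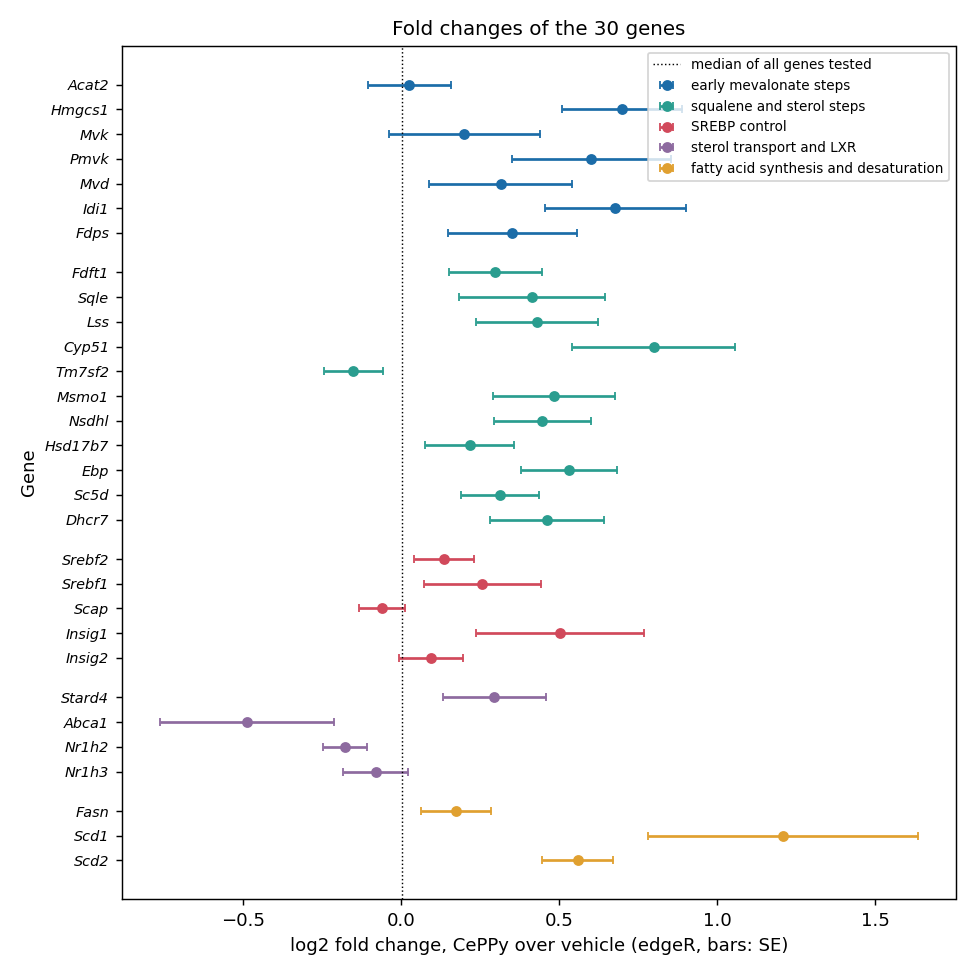
Log2 fold change of CePPy over vehicle (x axis) for the 30 genes (y axis), coloured by role, from edgeR with bars for the SE (3 libraries per group). The dotted line is the median of all genes tested, 0.003, and 17 of the 18 synthesis enzymes lie to its right, with Tm7sf2 at -0.15 to its left.

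Library totals ranged from 29762157 to 37415213 counts, and 1 count equalled 0.0266 to 0.0333 CPM after TMM adjustment, so counting error is small for these genes, whose lowest count in any library was 265 (Pmvk) and highest 22811 (Hmgcs1). Levels below are in CPM, the count scaled to library size after TMM adjustment, given for libraries 1, 2 and 3 of each group in that order. Kidney identity was plain in the summed CPM of proximal tubule markers (11900 to 22000 in CePPy libraries and 11440 to 12610 in vehicle libraries), with all 8 markers detected. CePPy 1 stood farthest from vehicle on the first principal component, and CePPy 2 nearest.

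Per kilobase of merged exon, the levels of the 30 genes spanned a wide range. In CePPy kidneys Hmgcs1, which makes HMG-CoA from acetyl-CoA and acetoacetyl-CoA, was the most abundant at 110.5 CPM per kilobase in CePPy and 68.0 in vehicle. Next came Acat2, a cytosolic thiolase of the first step, at 42.5 CPM per kilobase in CePPy and 41.7 in vehicle, and Sqle, squalene epoxidase, at 30.8 CPM per kilobase in CePPy and 23.1 in vehicle. Lss, the cyclase that makes lanosterol, was lowest at 2.58 CPM per kilobase in CePPy and 1.92 in vehicle, although its merged exons, at 10787 bases, are the second longest of the 30 and include alternative forms. The LXR gene Nr1h2 (20.7 CPM per kilobase in CePPy and 23.4 in vehicle) was above its relative Nr1h3 (15.1 CPM per kilobase in CePPy and 16.004 in vehicle), and Srebf2 (15.3 CPM per kilobase in CePPy and 14.0 in vehicle) above Srebf1 (10.999 CPM per kilobase in CePPy and 9.20 in vehicle).

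Of the early mevalonate genes, all 7 had higher fitted values, with a median log2 fold change of 0.35, 3 at an unadjusted edgeR p under 0.05 and 2 called by DESeq2. Over all genes tested, 9.65% were higher at that unadjusted p, and DESeq2 called 3.43% higher. Hmgcs1 (ENSMUSG00000093930, chromosome 13, 119690379 to 119708260, plus strand) measured 642, 414 and 467 CPM in CePPy libraries, against 252, 363 and 323 CPM in vehicle libraries. All 3 CePPy libraries were above all 3 vehicle libraries, with CePPy 1 the highest and vehicle 1 the lowest. edgeR gave a log2 fold change of 0.70 ± 0.19 (SE), with an edgeR adjusted p of 0.137, and DESeq2 called it (adjusted p = 0.00697). An antisense gene, Gm48342, covers 12.1% of its exon bases, so reads of that gene would be mixed in if strand was not used. Idi1 (ENSMUSG00000058258, chromosome 13, 8885501 to 8892451, plus strand), the isomerase that makes the allylic isoprenoid unit, measured 106, 81.3 and 65.9 CPM in CePPy libraries, against 39.5, 67.8 and 50.9 CPM in vehicle libraries. Vehicle 2 lay between CePPy 2 and CePPy 3, so the groups overlapped. This was a log2 fold change of 0.68 ± 0.22 (SE), with an edgeR adjusted p of 0.173 and a DESeq2 adjusted p of 0.0376.

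Pmvk, phosphomevalonate kinase, measured 18.6, 10.1 and 9.90 CPM in CePPy libraries, against 9.41, 8.15 and 7.87 CPM in vehicle libraries. CePPy 1 stood apart from the other 5 libraries, which lay between 7.87 and 10.1 CPM, and the groups did not overlap. On the log2 scale the change was 0.60 ± 0.25 (SE), with an edgeR adjusted p of 0.249. The other early genes had smaller log2 fold changes, with Mvk, mevalonate kinase, at 0.20 (SE 0.24), Mvd, the decarboxylase, at 0.32 (SE 0.23), and Fdps, farnesyl diphosphate synthase, at 0.35 (SE 0.20). Acat2 had a log2 fold change of 0.026 (SE 0.13). The values of Acat2 and Mvd turned to -0.14 and -0.010 without CePPy 1, and that of Acat2 to -0.0052 with libraries scaled by total counts alone. Fdps shares 26.7% of its exon bases with Gm43738 on the same strand, and its counts are uncertain for that reason.

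In the squalene and sterol steps, 10 of 11 genes had higher fitted values, with a median log2 fold change of 0.43, 6 at an unadjusted edgeR p under 0.05 and 2 called by DESeq2. The shares over all genes tested were 9.65% higher at that unadjusted p and 3.43% called higher by DESeq2. Cyp51 (ENSMUSG00000001467, chromosome 5, 4081145 to 4104746, minus strand), the lanosterol demethylase, measured 153, 100.4 and 80.0 CPM in CePPy libraries, against 49.1, 81.0 and 61.7 CPM in vehicle libraries. CePPy 1 was the highest and vehicle 1 the lowest, and vehicle 2 lay just above CePPy 3. On the log2 scale the change was 0.80 ± 0.26 (SE), with an edgeR adjusted p of 0.169, and its fold was the largest of the 18 enzymes; DESeq2 called it (adjusted p = 0.0231). Ebp (ENSMUSG00000031168, chromosome X, 8185329 to 8193512, minus strand), the sterol isomerase, measured 73.2, 47.5 and 61.4 CPM in CePPy libraries, against 40.3, 45.6 and 40.0 CPM in vehicle libraries. The groups did not overlap, although CePPy 2 was close to vehicle 2. The fitted log2 fold change was 0.53 ± 0.15 (SE), with an edgeR adjusted p of 0.145, and the DESeq2 adjusted p was 0.0289. Without CePPy 2, edgeR also called Ebp higher, with a log2 fold change of 0.68 and an adjusted p of 0.024. In that setting edgeR called 467 of 15697 genes tested higher, against 0 of 15416 with all libraries. The call is therefore not particular to Ebp. Over all alternatives for Ebp, DESeq2 and limma-voom included, the adjusted p ranged from 0.024 to 0.363.

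Nsdhl (ENSMUSG00000031349, chromosome X, 72918557 to 72958514, plus strand), the sterol dehydrogenase of the demethylation steps, measured 93.9, 73.9 and 61.1 CPM in CePPy libraries, against 50.8, 60.8 and 56.3 CPM in vehicle libraries. CePPy 3 and vehicle 2 nearly touched, at 61.1 and 60.8 CPM, without overlap. In the edgeR fit its log2 fold change was 0.45 ± 0.15 (SE), with an edgeR adjusted p of 0.185. Msmo1 (ENSMUSG00000031604, chromosome 8, 64718139 to 64733792, minus strand), the methylsterol oxidase, measured 85.7, 87.0 and 59.7 CPM in CePPy libraries, against 42.6, 66.4 and 57.2 CPM in vehicle libraries. CePPy 1 and CePPy 2 were alike and high, while vehicle 2 exceeded CePPy 3. The log2 fold change of Msmo1 came to 0.48 ± 0.19 (SE), with an edgeR adjusted p of 0.231.

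Dhcr7 (ENSMUSG00000058454, chromosome 7, 143823145 to 143848410, plus strand), the reductase that makes cholesterol from its dehydro precursor, measured 35.2, 29.4 and 21.5 CPM in CePPy libraries, against 19.5, 23.7 and 19.3 CPM in vehicle libraries. Vehicle 2 again exceeded CePPy 3, and the other vehicle libraries were the lowest. edgeR gave a log2 fold change of 0.46 ± 0.18 (SE), with an edgeR adjusted p of 0.227. Sc5d (ENSMUSG00000032018, chromosome 9, 42251595 to 42264256, minus strand), the sterol desaturase before that step, measured 55.4, 46.8 and 40.8 CPM in CePPy libraries, against 35.3, 41.6 and 38.3 CPM in vehicle libraries. The order of the libraries was CePPy 1, CePPy 2, vehicle 2, CePPy 3, vehicle 3, vehicle 1 from high to low, as for Cyp51, Idi1, Lss and Hsd17b7. This was a log2 fold change of 0.31 ± 0.12 (SE), with an edgeR adjusted p of 0.229.

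Sqle had a log2 fold change of 0.41 (SE 0.23) and Lss of 0.43 (SE 0.19). Fdft1, squalene synthase, was at 0.30 (SE 0.15), and Ctsb on the opposite strand covers 18.3% of its exon bases. For Hsd17b7, a sterol ketoreductase, the value was 0.22 (SE 0.14). Tm7sf2, a sterol reductase whose step can also be carried out by another protein, was the enzyme with a lower fitted value. It measured 37.2, 37.6 and 34.8 CPM in CePPy libraries, against 38.1, 45.2 and 38.4 CPM in vehicle libraries. Every CePPy library was below every vehicle library, by a margin smaller than the spread inside vehicle. On the log2 scale the change was -0.15 ± 0.094 (SE), with an edgeR adjusted p of 0.414, and 12.1% of its exon bases are shared with Vps51 on the same strand.

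**Figure D2:**
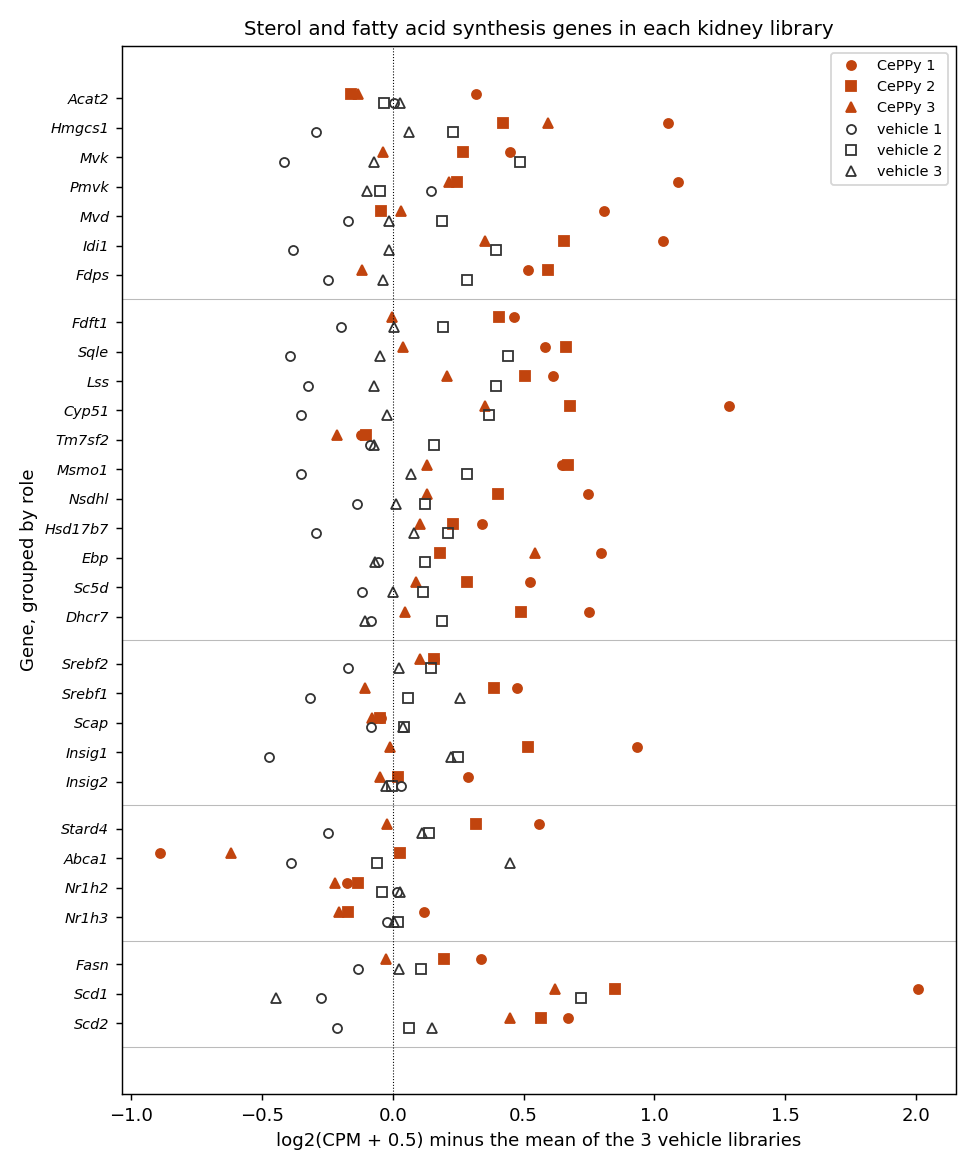
Level of each gene (y axis, grouped by role) in each of the 6 libraries, as log2(CPM + 0.5) minus the mean of the 3 vehicle libraries (x axis); filled symbols are CePPy libraries and open symbols vehicle libraries, with the shape giving the library number. Filled circles (CePPy 1) are the rightmost symbol for 21 of the 30 genes, and open squares (vehicle 2) lie to the right of filled triangles (CePPy 3) for 25.

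Among the genes of SREBP control, 4 of 5 had higher fitted values and 0 reached an unadjusted edgeR p under 0.05. The median log2 fold change was 0.14, and the groups overlapped for all 5. Srebf2 (ENSMUSG00000022463, chromosome 15, 82147181 to 82205379, plus strand), the gene of SREBP2 itself, measured 111, 112 and 107 CPM in CePPy libraries, against 88.6, 111 and 102 CPM in vehicle libraries. The CePPy libraries were close together and vehicle 2 reached the same level, with vehicle 1 lowest. The fitted log2 fold change was 0.14 ± 0.095 (SE), with an edgeR adjusted p of 0.469. Srebf1 (ENSMUSG00000020538, chromosome 11, 60199089 to 60222581, minus strand), the gene of SREBP1, measured 71.4, 67.1 and 47.5 CPM in CePPy libraries, against 41.0, 53.3 and 61.2 CPM in vehicle libraries. CePPy 3 lay below vehicle 2 and vehicle 3. In the edgeR fit its log2 fold change was 0.26 ± 0.19 (SE), with an edgeR adjusted p of 0.483.

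Insig1 (ENSMUSG00000045294, chromosome 5, 28071363 to 28078662, plus strand), the sterol-sensing retention factor that is itself an SREBP target, measured 55.1, 41.1 and 28.4 CPM in CePPy libraries, against 20.5, 34.1 and 33.4 CPM in vehicle libraries. The highest and lowest CePPy libraries differed by a factor of 1.94 and the vehicle libraries by 1.67, with CePPy 3 below vehicle 2 and vehicle 3. The log2 fold change of Insig1 came to 0.50 ± 0.27 (SE), with an edgeR adjusted p of 0.342. Insig2 (ENSMUSG00000003721, chromosome 1, 121304353 to 121332589, minus strand), its relative with the same function, measured 55.9, 46.3 and 44.1 CPM in CePPy libraries, against 46.6, 45.5 and 44.9 CPM in vehicle libraries. The vehicle libraries differed by a factor of 1.04, and CePPy 1 was the one library above them all. edgeR gave a log2 fold change of 0.10 ± 0.10 (SE), with an edgeR adjusted p of 0.638, and it became -0.012 without CePPy 1. Scap (ENSMUSG00000032485, chromosome 9, 110333288 to 110384950, plus strand), the escort protein of the SREBPs, measured 76.7, 76.5 and 74.8 CPM in CePPy libraries, against 74.8, 81.5 and 81.4 CPM in vehicle libraries. The highest CePPy level was 1.02 times the lowest, the least spread of the 30 genes in that group. This was a log2 fold change of -0.059 ± 0.072 (SE), with an edgeR adjusted p of 0.684, and the transcript 5830462I19Rik on the opposite strand covers 13.2% of its exon bases.

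The 4 genes of sterol transport and LXR had a median log2 fold change of -0.13, with 1 higher and 3 lower fitted values. Stard4 (ENSMUSG00000024378, chromosome 18, 33199355 to 33213862, minus strand), a cytosolic sterol carrier and SREBP2 target, measured 93.9, 79.4 and 62.6 CPM in CePPy libraries, against 53.5, 70.0 and 68.8 CPM in vehicle libraries. CePPy 3 was below vehicle 2 and vehicle 3, and vehicle 1 was lowest. On the log2 scale the change was 0.30 ± 0.16 (SE), with an edgeR adjusted p of 0.358. Abca1 (ENSMUSG00000015243, chromosome 4, 53030787 to 53159895, minus strand), the cholesterol exporter and LXR target, measured 24.0, 45.8 and 29.1 CPM in CePPy libraries, against 34.2, 43.1 and 61.5 CPM in vehicle libraries. Its order ran against that of the enzymes inside the CePPy group, with CePPy 1 the lowest of the 6 libraries and CePPy 2 below vehicle 3 alone. The fitted log2 fold change was -0.49 ± 0.28 (SE), with an edgeR adjusted p of 0.371.

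Nr1h2 (ENSMUSG00000060601, chromosome 7, 44549616 to 44553951, minus strand), the gene of LXR beta, measured 69.6, 71.7 and 67.4 CPM in CePPy libraries, against 79.4, 76.4 and 80.1 CPM in vehicle libraries. All CePPy libraries were below all vehicle libraries. In the edgeR fit its log2 fold change was -0.18 ± 0.069 (SE), with an edgeR adjusted p of 0.226, at an unadjusted edgeR p of 0.034. Nr1h3 (ENSMUSG00000002108, chromosome 2, 91184061 to 91202834, minus strand), the gene of LXR alpha, measured 43.8, 35.7 and 34.8 CPM in CePPy libraries, against 39.6, 40.8 and 40.4 CPM in vehicle libraries. CePPy 1 was the highest library while CePPy 2 and CePPy 3 were the lowest. The log2 fold change of Nr1h3 came to -0.080 ± 0.10 (SE), with an edgeR adjusted p of 0.702.

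All 3 genes of fatty acid synthesis and desaturation had higher fitted values. Scd2 (ENSMUSG00000025203, chromosome 19, 44293674 to 44306864, plus strand), a stearoyl-CoA desaturase, measured 149, 138 and 128 CPM in CePPy libraries, against 80.5, 97.5 and 104 CPM in vehicle libraries. The groups were separate, with the lowest CePPy library well above the highest vehicle library. The log2 fold change was 0.56 ± 0.11 (SE), with an edgeR adjusted p of 0.102, the lowest p of the 30 genes, and DESeq2 called it (adjusted p = 0.000866). Scd1 (ENSMUSG00000037071, chromosome 19, 44394455 to 44407879, minus strand), the desaturase of liver and fat that is a target of SREBP1 and LXR, measured 147, 65.7 and 56.0 CPM in CePPy libraries, against 29.8, 59.97 and 26.5 CPM in vehicle libraries. CePPy 1 stood far above the rest, and vehicle 2 exceeded CePPy 3. The log2 fold change was 1.21 ± 0.43 (SE), with an edgeR adjusted p of 0.194. Both the fold and its SE were the largest of the 30, and DESeq2 gave an adjusted p of 0.195. Scd1 and Scd2 are neighbouring paralogs on chromosome 19, and reads that map to both could have been split between them. Fasn (ENSMUSG00000025153, chromosome 11, 120805846 to 120824547, minus strand), fatty acid synthase, measured 92.9, 84.0 and 72.0 CPM in CePPy libraries, against 66.9, 79.1 and 74.5 CPM in vehicle libraries. The groups overlapped, with CePPy 3 between vehicle 1 and vehicle 3. edgeR gave a log2 fold change of 0.17 ± 0.11 (SE), with an edgeR adjusted p of 0.425.

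The order of the libraries was shared across many of the genes, in both groups. Within CePPy, the order CePPy 1, CePPy 2, CePPy 3 from high to low held for 19 of the 30 genes and 10 of the 18 enzymes, against 15.6% of all genes tested. Within vehicle, the order vehicle 2, vehicle 3, vehicle 1 held for 20 of the 30 and 14 of the 18, against 17.1%. CePPy 1 was the highest of all 6 libraries for 21 of the 30 genes (25.8% of all genes), and vehicle 1 the lowest for 20 (15.5%). The genes come from the same 6 libraries, so they are not independent observations of this order, and it was read from the data.

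The spread inside the groups was of the size of the difference between them. For the 18 enzymes the median ratio of CePPy 1 to CePPy 3 was 1.42, and that of vehicle 2 to vehicle 1 was 1.36. Over all genes tested these medians were 0.999 and 1. Scaling of the libraries holds such a median near 1, so it does not measure the spread of all genes. Both pairs of libraries were chosen after the library orders were seen. CePPy 1 over vehicle 1, the extremes, gave a median of 1.83, and CePPy 3 over vehicle 2 gave 0.918. CePPy 3 was below vehicle 2 for 14 of the 18 enzymes, while in each of the other 8 pairings the CePPy library was below for 1 to 4 of the 18. The range inside a group was larger than the difference between the group means, on the log2 scale, for 27 of the 30 genes (90%) and for 85.9% of all genes tested. By this measure the 30 genes were near all genes. As median levels over the enzymes relative to the vehicle mean, the libraries stood at 0.63, 0.40 and 0.10 log2 units in CePPy and at -0.22, 0.20 and -0.02 in vehicle.

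**Figure D3:**
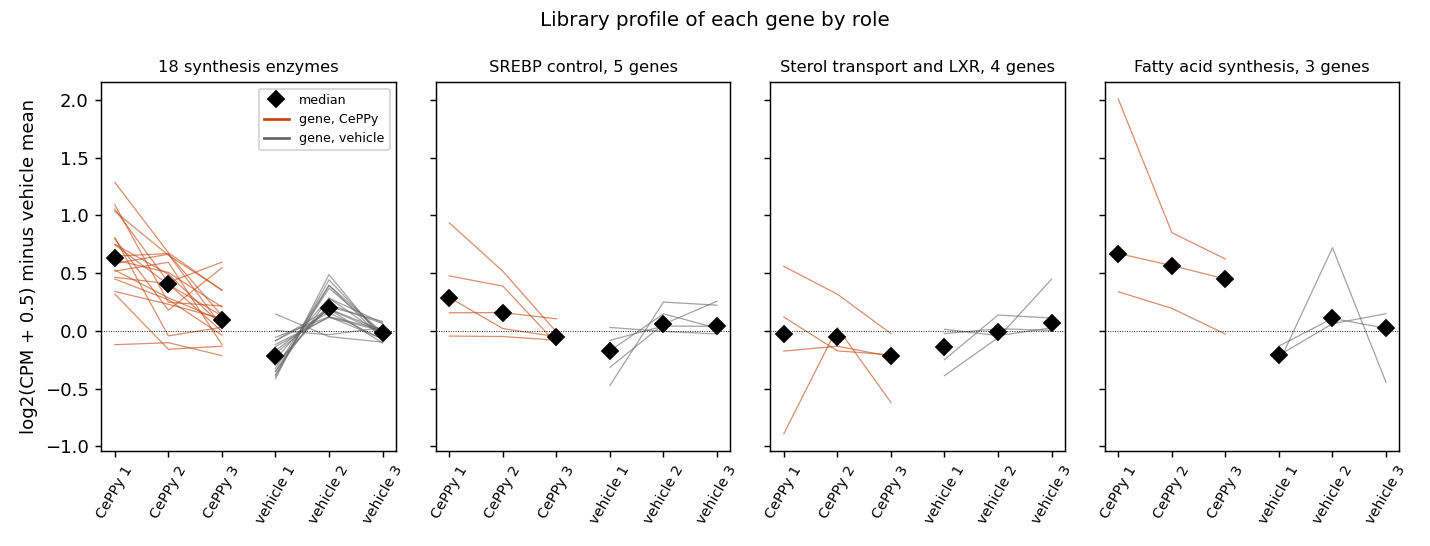
Level of each gene relative to the vehicle mean, as log2(CPM + 0.5), in the 3 CePPy and 3 vehicle libraries (x axis), in a panel per role; thin lines join the values of 1 gene inside a group and serve only to follow it, since libraries have no order, and diamonds are medians. For the 18 enzymes the medians are 0.63, 0.40 and 0.10 in CePPy and -0.22, 0.20 and -0.02 in vehicle.

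The spread inside one group was then set beside that inside the other. Across the 30 genes, Spearman's rho between the CePPy 1 to CePPy 3 ratio and the vehicle 2 to vehicle 1 ratio was 0.48, a description over genes that share the same 6 libraries, and 0.17 across the 18 enzymes alone. The same value over all genes tested was 0.11. Scd1 had the largest of both ratios, at 2.62 in CePPy and 2.01 in vehicle. For the CePPy ratio, Insig1 (1.94 in CePPy and 1.67 in vehicle) and Cyp51 (1.92 in CePPy and 1.65 in vehicle) came next. For the vehicle ratio, Mvk (1.42 in CePPy and 1.91 in vehicle) and Sqle (1.46 in CePPy and 1.79 in vehicle) did. At the other end Scap had 1.02 and 1.09, and Nr1h2 1.03 and 0.962. Pmvk was wide in CePPy, at 1.88, but not in vehicle, at 0.866.

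**Figure D4:**
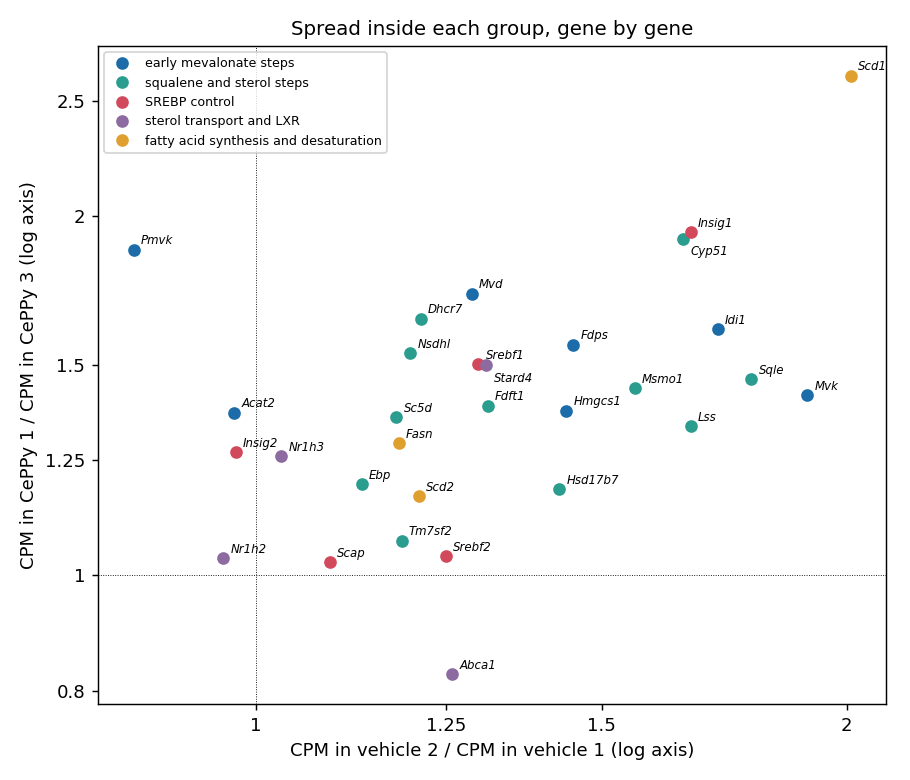
Ratio of CePPy 1 to CePPy 3 (y axis, log scale) against the ratio of vehicle 2 to vehicle 1 (x axis, log scale) in CPM for each of the 30 genes, coloured by role. Scd1 lies at the upper right with ratios of 2.62 and 2.01, and Scap near the lower left with 1.02 and 1.09.

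The summed levels of kidney cell type markers also differed between the libraries. In whole tissue, fewer cells of a type and less RNA per cell cannot be told apart. The summed CPM of the 18 enzymes was 1889, 1454 and 1312 CPM in CePPy libraries and 932, 1296 and 1103 CPM in vehicle libraries. The 8 proximal tubule markers summed to 22000, 11900 and 15040 CPM in CePPy libraries and 11440, 11440 and 12610 CPM in vehicle libraries. All 8 had higher fitted values, 4 at an unadjusted edgeR p under 0.05, and DESeq2 called 3 higher (Slc34a1, Slc22a8 and Aqp1). The 3 thick ascending limb markers (Umod, Slc12a1 and Egf) summed to 6186, 3360 and 4104 CPM in CePPy libraries and 2592, 2902 and 2593 CPM in vehicle libraries, and all 3 were higher at an unadjusted edgeR p under 0.05 and called by DESeq2. CePPy 1 was the highest library and CePPy 2 the lowest of its group for both of these sums. Kap made up most of the first sum and Umod most of the second. Among vehicle libraries, vehicle 2 was the highest for Umod (2486, 2810 and 2491 CPM) and so for the second sum. It was the lowest for Slc12a1 (88.8, 73.6 and 83.7 CPM), and vehicle 3 was the highest for Egf (17.4, 18.4 and 18.5 CPM). The 4 tubular injury markers summed to 1329, 2993 and 2013 CPM in CePPy libraries and 3624, 3705 and 3455 CPM in vehicle libraries. All 4 had lower fitted values, 2 at an unadjusted edgeR p under 0.05, and DESeq2 called those 2 lower (Havcr1 and Sox9). The 5 neutrophil markers summed to 9.62, 22.4 and 15.7 CPM in CePPy libraries and 33.3, 49.3 and 49.8 CPM in vehicle libraries, all 5 were lower at an unadjusted edgeR p under 0.05, and DESeq2 called 3 lower (S100a8, S100a9 and Csf3r). The 6 macrophage markers, 2 with higher and 4 with lower fitted values, summed to 146, 122 and 136 CPM in CePPy libraries and 142, 149 and 127 CPM in vehicle libraries, with overlap between the groups, and 0 were at an unadjusted edgeR p under 0.05 or called by DESeq2. At an adjusted p under 0.05, edgeR and limma-voom called 0 markers of these 5 lists. Over all genes tested, 9.65% were higher and 9.37% lower at an unadjusted edgeR p under 0.05, and DESeq2 called 3.43% higher and 3.23% lower. The part of these cell types in the values of the 30 genes was not tested.

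Fat around the kidney and the adrenal gland are rich in lipid and sterol synthesis, so their markers are given too. The 10 adipose markers summed to 123, 86.2 and 106 CPM in CePPy libraries and 69.8, 67.0 and 58.8 CPM in vehicle libraries, most of it Fabp4 and Car3. All 5 that were tested had higher fitted values, 3 at an unadjusted edgeR p under 0.05, and DESeq2 called Car3 higher. Car3 measured 39.7, 18 and 21.8 CPM in CePPy libraries, against 4.68, 9.74 and 6.39 CPM in vehicle libraries, and Fabp4 81.9, 60.2 and 68.2 CPM in CePPy libraries, against 60.002, 54.8 and 51.7 CPM in vehicle libraries, both without overlap and highest in CePPy 1. Cidec measured 1.01, 2.18 and 4.50 CPM in CePPy libraries, against 1.61, 0.677 and 0.624 CPM in vehicle libraries. Cfd measured 0.113, 3.32 and 7.70 CPM in CePPy libraries, against 2.20, 1.47 and 0 CPM in vehicle libraries. Lep was at 0 in all 6 libraries. Adipoq was at most 1.13 CPM and Plin1 at most 1.30 CPM, and both were at 0 in CePPy 1 and vehicle 3. The sum was thus highest in CePPy 1 through Fabp4 and Car3. For Cidec, Cfd, Adipoq and Plin1, CePPy 2 and CePPy 3 were the highest libraries and CePPy 1 was below vehicle 1. The 9 adrenal cortex markers summed to 6.44, 8.38 and 6.53 CPM in CePPy libraries and 9.13, 8.80 and 8.64 CPM in vehicle libraries, with Cyp11b2, Cyp21a1 and Nr5a1 at 0 in all libraries, and 0 of the 3 tested were at an unadjusted edgeR p under 0.05 or called by DESeq2. The 5 hepatocyte markers summed to 105, 58.0 and 63.3 CPM in CePPy libraries and 29.4, 38.0 and 31.5 CPM in vehicle libraries. Most of it was Serpina1a and Ttr. Of the 4 tested, 3 (Serpina1a, Ttr and Apoa2) had higher fitted values without overlap between the groups. Serpina1a and Ttr were at an unadjusted edgeR p under 0.05 and called higher by DESeq2. Alb, the other, had a log2 fold change of -0.020. It measured 5.29, 5.08 and 5.23 CPM in CePPy libraries, against 3.79, 5.94 and 6.09 CPM in vehicle libraries, with overlap. The shares over all genes tested were 9.65% higher at an unadjusted edgeR p under 0.05 and 3.43% called higher by DESeq2. Each CePPy library lay above each vehicle library for 12.3% of all genes tested. At an adjusted p under 0.05, edgeR and limma-voom called 0 markers of these 3 lists, and the part of these tissues in the values of the 30 genes was not tested.

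**Figure D5:**
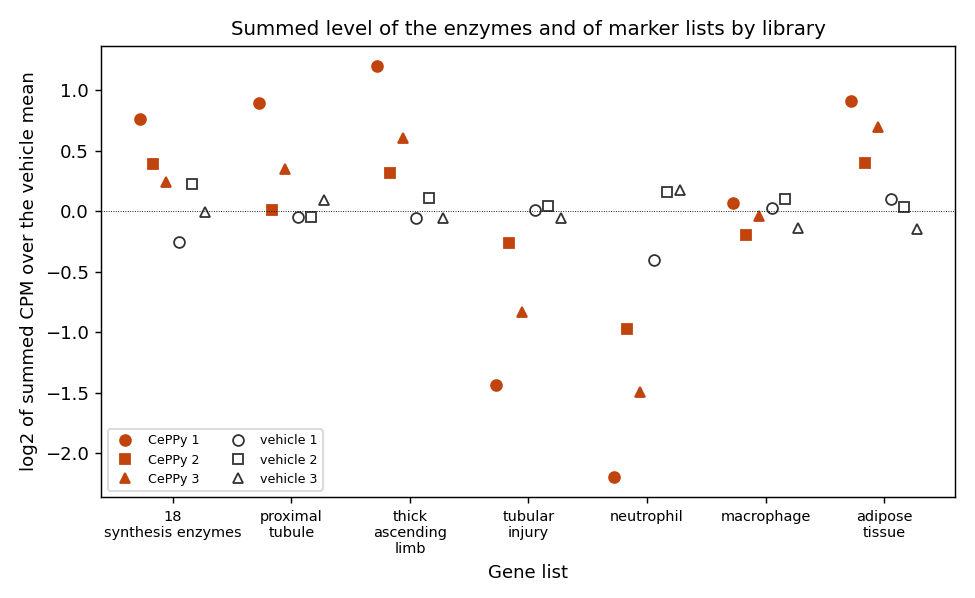
Log2 of the summed CPM of the 18 enzymes and of 6 marker lists (x axis) relative to the mean of the 3 vehicle libraries (y axis), by library. CePPy 1 is farthest from 0 among the CePPy libraries for each list but macrophage, where CePPy 2 is, and CePPy 3 and vehicle 2 lie near each other for the enzymes, at 1312 and 1296 CPM. Most of the adipose sum is Fabp4 and Car3, and most of the thick ascending limb sum is Umod.

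Other genes of the pathway were taken from lists by function, drawn up with earlier results of these data known, and limma-voom called 0 in each of the 3 lists. Beside the counts of each list stand the shares over all genes tested. At an unadjusted edgeR p under 0.05 these were 9.65% higher and 9.37% lower, and DESeq2 called 3.43% higher and 3.23% lower. Of 25 further genes of sterol uptake, processing and SREBP activation, edgeR called 0, with 5 higher and 0 lower at an unadjusted p under 0.05, DESeq2 called 1 higher, and the median log2 fold change was 0.08. The lowest p belonged to Cyp7b1, an oxysterol hydroxylase of bile acid synthesis, at 47.3, 22.5 and 15.3 CPM in CePPy libraries, against 7.27, 14.5 and 6.36 CPM in vehicle libraries. The groups did not overlap but came close, and CePPy 1 was far above the rest. This was a log2 fold change of 1.60 ± 0.46 (SE), with an edgeR adjusted p of 0.146. Cyp27a1, which makes an oxysterol that activates LXR, measured 28.9, 17.8 and 19.9 CPM in CePPy libraries, against 13.6, 15.1 and 15.8 CPM in vehicle libraries. Each CePPy library exceeded each vehicle library, and the log2 fold change was 0.58 ± 0.18 (SE), with an edgeR adjusted p of 0.165.

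Of 10 LXR targets and partners, edgeR called 0, with 2 higher and 0 lower at an unadjusted p under 0.05, DESeq2 called 1 higher, and the median was 0.17. Apoe, the apolipoprotein that takes up exported cholesterol, measured 215, 154 and 126 CPM in CePPy libraries, against 107, 120.4 and 109 CPM in vehicle libraries. The groups did not overlap, and the log2 fold change was 0.56 ± 0.18 (SE), with an edgeR adjusted p of 0.168, unlike that of Abca1, whose fitted value was lower. Smpdl3a, a secreted phosphodiesterase, measured 433, 284 and 307 CPM in CePPy libraries, against 243, 236 and 290.3 CPM in vehicle libraries. CePPy 2 was below vehicle 3, and the log2 fold change was 0.41 ± 0.17 (SE), with an edgeR adjusted p of 0.238.

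Of 15 further fatty acid genes, 14 were tested. Among these edgeR called 0, with 5 higher and 1 lower at an unadjusted p under 0.05, DESeq2 called 4 higher, and the median was 0.21. Acss2, the acetyl-CoA synthetase of the cytosol and nucleus and an SREBP target, measured 188, 112 and 163 CPM in CePPy libraries, against 85.5, 93.1 and 75.5 CPM in vehicle libraries. The groups were separate, with CePPy 2 the lowest of its group. On the log2 scale the change was 0.86 ± 0.18 (SE), with an edgeR adjusted p of 0.102, and DESeq2 called it (adjusted p = 0.000343). Fads2, a fatty acid desaturase and SREBP1 target, measured 79.8, 53.6 and 54.6 CPM in CePPy libraries, against 28.0, 41.8 and 39.5 CPM in vehicle libraries. The groups were again separate, and the log2 fold change was 0.78 ± 0.20 (SE), with an edgeR adjusted p of 0.122, and DESeq2 called it (adjusted p = 0.00518).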

How the data were processed

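RNA from 6 mouse kidney samples was sequenced, and the authors deposited whole-number read counts per gene in 1 table, with no normalization. Per the labels' protocols, 2 µg of total RNA went into an mRNA library kit. The submitters' processing notes name TopHat2, Cufflinks, DESeq and build GRCm38 without versions. The sources used here do not give the counting program, its strand setting, the annotation or the filters. Groups and library numbers came from the sample titles. No libraries of a group agreed within sampling noise (chi-square per degree of freedom from 19.7 to 106, genes under 20 counts left out).

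Low counts were removed with filterByExpr of edgeR 4.0.16 (R 4.3.3), leaving 15416 of 25031 genes, and libraries were scaled by TMM. CePPy was compared with vehicle by the edgeR quasi-likelihood test (4 residual degrees of freedom), with Benjamini-Hochberg adjustment over all genes tested and a threshold of 0.05. Fold changes are CePPy over vehicle. Alternatives were DESeq2 1.42.0, limma-voom (limma 3.58.1), other scalings, no filter, a replicate block and leaving out each library. No test of a gene list was made. Coordinates and merged exon lengths are from GENCODE M21 on GRCm38.

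The 30 genes, the other lists and the markers were chosen with earlier results of these data known. Values by library were given for all genes outside the synthesis enzymes and for the 8 enzymes with the lowest p. Pmvk and Tm7sf2 were added after their values were seen. From each further list the 2 genes with the lowest p were named. Library orders were also read after the data were seen.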

Additional observations from a re-analysis of the deposited data

How the results depend on the processing

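The number of genes called over all genes was 1 with edgeR, 63 without the filter on low counts (26 higher, 37 lower), 1026 with DESeq2 (528 higher, 498 lower) and 0 with a replicate block, and it ranged from 0 to 811 with 1 library left out, the highest being without CePPy 2. Among the 30 genes, 5 were called with DESeq2, and 0 to 1 with a library left out. The fold change of Acat2 turned to -0.0052 with total counts only; the cause was not tested. With a library left out it ranged from -0.14 to 0.11, that of Mvd from -0.010 to 0.47 and that of Insig2 from -0.012 to 0.17, each negative only without CePPy 1. The other 356 of 360 fold changes of single genes under an alternative kept their sign. The median over the 30 genes ranged from 0.20 to 0.46, and that over the 18 enzymes from 0.27 to 0.55, with a library left out, and stayed above 0 under each alternative run. The labels do not say whether library numbers pair the samples. Same-numbered libraries had correlations of their deviations from the group means of -0.143, 0.134 and -0.008. Those of libraries with different numbers ran from -0.201 to 0.228, and CePPy 2 alone correlated best with its own number. Values this weak, with 3 libraries per group, cannot decide whether samples were paired. With the replicate block the enzyme median was 0.43, and 0 of the 30 genes were called. With 3 libraries per group, an exact permutation test cannot give a two-sided p below 0.1. Depth was no limit for the 30 genes, whose lowest count was 265.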

Other observations

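In the 14 further fatty acid genes tested, the order CePPy 1, CePPy 3, CePPy 2 from high to low was the most frequent inside the CePPy group, in 5 genes, and the order CePPy 1, CePPy 2, CePPy 3, which 10 of the 18 cholesterol enzymes had, was found in 3. Vehicle 2 exceeded CePPy 3 for 4 of these 14 genes, for 16 of the 25 further sterol genes and for 5 of the 10 LXR targets and partners, against 50.0% of all genes tested. The gene of the phosphatidate phosphatase Lpin1 measured 50.2, 29.1 and 49.6 CPM in CePPy libraries, against 23.4, 25.0 and 30.5 CPM in vehicle libraries. Acacb, a mitochondrial acetyl-CoA carboxylase, measured 18.4, 8.77 and 13.9 CPM in CePPy libraries, against 9.36, 6.503 and 6.42 CPM in vehicle libraries. In both genes CePPy 2 was the lowest CePPy library and the groups overlapped. DESeq2 called both higher, while edgeR called neither (adjusted p = 0.152 for Lpin1 and 0.165 for Acacb). Both were chosen after their values were seen.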
